A study of Rattus norvegicus with 60 samples.

Results

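Knee joint tissue was compared between the bled and the contralateral knee of 11 haemophilia A rats, which lack coagulation factor VIII and bleed into joints after injury. The comparison was defined by the sample labels: 11 arrays of injured knees against 11 arrays of contralateral knees, paired by rat code from K1 to K11, which makes 22 of the 60 arrays of the study. A bleed was induced in the left knee, all 11 rats were killed 24 h later, and each knee gave 1 array of RNA from tissue of the joint's inside. A further 7 arrays came from the right knee of 7 other haemophilia A rats that had a sham procedure. Their levels are given beside some results as a reference and entered no test here. The remaining arrays were of popliteal lymph nodes. The strain, age and sex of the rats, the method used to induce the bleed and the scan batches were not analysed here, since the labels do not state them. Because the bled knee was always the left and the contralateral knee always the right, side and bleed cannot be told apart, nor can the injury and the blood that followed it. Both knees also came from an animal with a fresh bleed, so the contralateral knee is not an untreated joint.

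The tissue inside a rat knee is a mixture of synovial lining and sublining fibroblasts, infrapatellar fat, vessels, nerves and resident macrophages, often with pieces of tendon, cartilage or muscle attached. Blood in a joint delivers red cells, platelets, plasma and leukocytes, and macrophages take up the red cells and break down their haem. Recruited leukocytes and activated stromal cells can change which transcription factors, receptors and metabolic enzymes a tissue expresses. Their parts in the differences below were not tested. In such bulk RNA, fewer cells of a type and less RNA per cell cannot be told apart, for any gene described here.

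Values are log2 expression levels of a probe set. A difference is the mean of the 11 paired differences, bled minus contralateral, given with ± the standard error (SE) of limma's paired fit, so that 1 on this scale is a 2-fold change. A gene is said to have risen or fallen where limma's Benjamini-Hochberg adjusted p over all 36685 probe sets was under 0.05. Unless stated otherwise, each gene so named also had the same sign in all 11 rats. For genes with several probe sets, the brightest stood for the gene.

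The 22 arrays had medians between 5.64 and 5.74. Fibroblast markers of the synovium were well expressed in both knees: the lubricin gene Prg4 was at least 12.99 on each of the 22 arrays, with 13.4 as its highest bled and 13.38 as its highest contralateral level. A contralateral array stood apart. In rat K10, the mean of 19 neutrophil markers was 8.0 in the contralateral knee, against 5.96 to 6.26 in the other 10 contralateral knees, and 7.34 in its bled knee. The mean of 8 erythroid markers was 7.57 in the same array, against 5.74 to 6.5 in the others. The neutrophil precursor granule gene Ngp stood at 9.57 there, with 4.80 as the next highest contralateral level. In the bled knee of rat K2 the same means were 8.91 and 7.75, the highest of the 11 bled knees. Without rats K2 and K10, 13107 probe sets were called in place of 13818, and the neutrophil markers kept 13 members called higher and 2 called lower. The mean of 20 skeletal muscle genes varied widely, with 5.36 as its lowest and 11.2 as its highest value among bled knees, and 5.64 and 11.5 among contralateral ones. That range spans more than any list described below, and the part of muscle in the other results was looked at by adding that mean as a covariate.

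**Figure D1:**
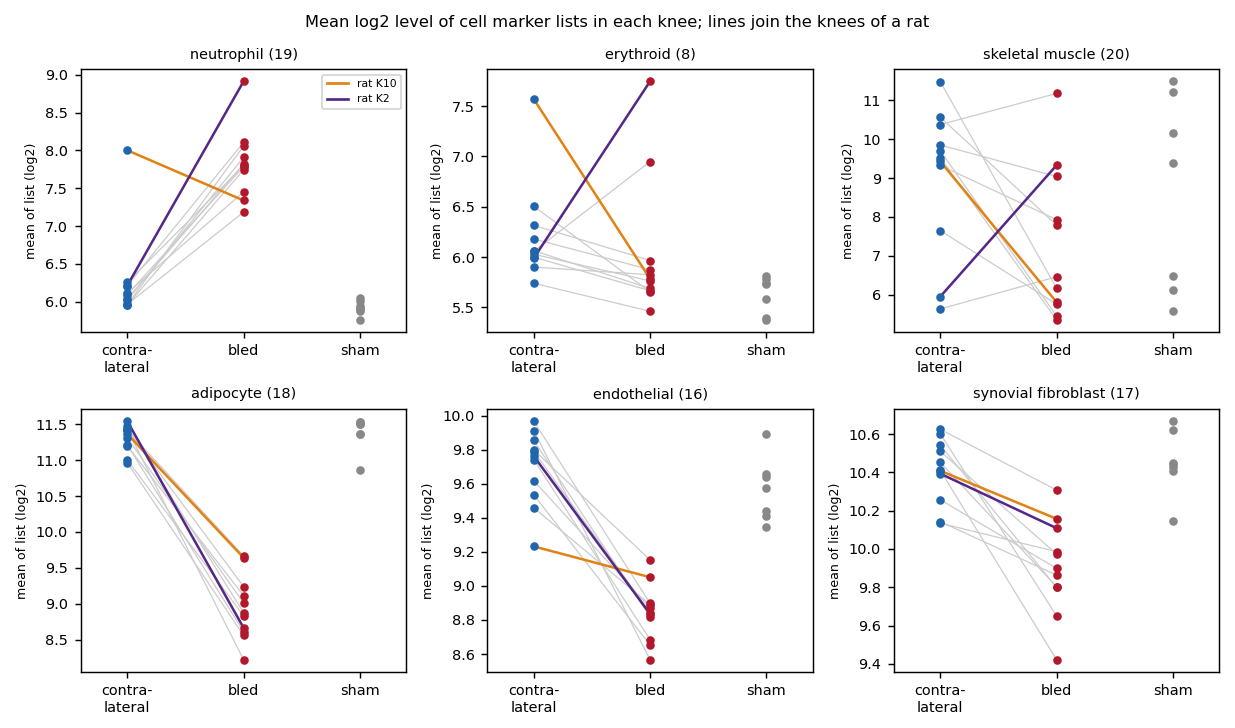
Mean log2 level (y axis) of 6 lists of cell markers in each contralateral (blue), bled (red) and sham knee (grey), with lines joining the knees of a rat and the number of genes in brackets. The contralateral knee of rat K10 (orange) reached 8.0 in the neutrophil and 7.57 in the erythroid list, and the bled knee of rat K2 (purple) reached 8.91 and 7.75.

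The first question was how widely and how evenly the knees of a rat differed. Of the 18166 named genes, 51.8% were called, 27.1% as higher and 24.7% as lower in the bled knee. At least 2-fold changes were fewer, with 5.05% of genes higher and 6.07% lower. Among all 36685 probe sets, named or not, 37.7% were called. In 6484 genes (35.7%) the difference had the same sign in all 11 rats: 3559 (19.6%) were higher and 2925 (16.1%) lower every time. Of these 6484 genes, 4589 (25.3% of all genes) differed by less than 2-fold, so that most of the genes that moved in 1 direction in every rat moved little. The levels of the bled and contralateral knees did not overlap for 22.0% of the genes. The median difference over all genes was −0.004, so the shifts of lists given below are set against a centre near 0. Likewise, the counts of risen and fallen list members are to be read beside 27.1% and 24.7%.

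**Figure D2:**
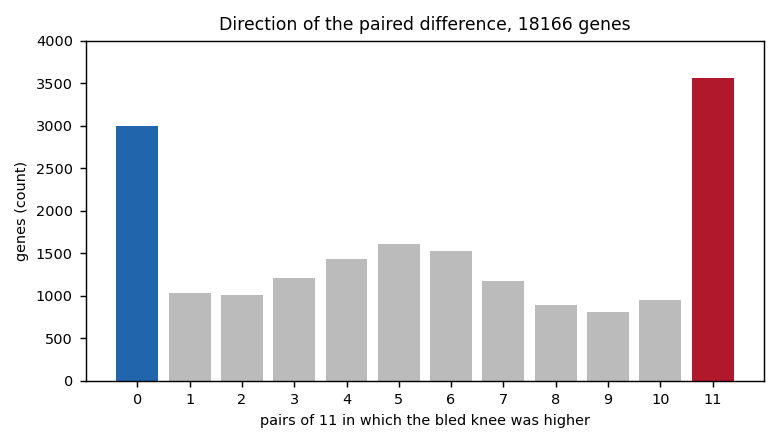
Number of genes (y axis) by the number of the 11 rats in which the bled knee was higher (x axis). The outer bars hold the 2998 genes that were higher in the bled knee of no rat, ties counted as not higher, and the 3559 genes that were higher in all 11.

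Genes were ranked by how far the smallest of their 11 paired differences lay from 0, so that a high rank means a large difference in every rat. The leading genes were Arg1 (arginase, which splits arginine into ornithine and urea), Il6 (the cytokine interleukin 6), Slpi (a secreted inhibitor of neutrophil elastase), Adam8 (a membrane metalloprotease of leukocytes) and Hmox1 (haem oxygenase, which opens the haem ring). The level of Arg1 was 10.54, 11.10 and 11.98 (lowest, median and highest) in the bled knees and 4.95, 5.27 and 5.47 in the contralateral knees. Its groups were far apart, and the smallest paired difference was 5.16 (5.94 ± 0.18, 61.5-fold, adjusted p = 3.34e-10). Il6 rose by 5.75 ± 0.24, Slpi by 4.52 ± 0.16 and Adam8 by 4.06 ± 0.14. For Hmox1 the level was 11.60 to 12.42 (median 12.26) in the bled and 7.84 to 8.75 (median 8.13) in the contralateral knees, and its paired differences lay between 3.13 and 4.45. Also among the 10 leading rises were Fgf23 (4.96 ± 0.24), the hormone of phosphate handling that is known mainly from bone, the interleukin 1 receptor antagonist Il1rn (3.67 ± 0.15), the epithelial surface protein Plet1 (3.42 ± 0.13), the lectin receptor Clec4a2 (4.54 ± 0.17) and the monocyte attractant Ccl7 (4.42 ± 0.25). The contralateral means of Arg1, Il6, Fgf23, Plet1 and Clec4a2 lay below the array median, where array values compress, so their folds are less exact than their direction.

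By the same rank the leading falls were those of Sult1a1, Lgals12, Slc36a2, Bche and Acvr1c. Sult1a1, a sulfotransferase of phenols and hormones, was at 5.14 to 7.91 (median 5.49) in the bled and 10.90 to 12.29 (median 11.62) in the contralateral knees and fell 53.9-fold (−5.75 ± 0.29, adjusted p = 7.89e-09). No bled knee reached the lowest contralateral level. Lgals12, a galectin of lipid droplets, fell by 4.34 with paired differences from −5.36 to −3.25. The proton-coupled amino acid transporter Slc36a2 (−3.44 ± 0.14), butyrylcholinesterase Bche (−3.78 ± 0.16), the activin receptor Acvr1c (−3.46 ± 0.16), the death ligand Tnfsf10 (−4.50 ± 0.27), the neuronatin gene Nnat (−3.86 ± 0.18), osteomodulin Omd (−5.16 ± 0.34) and the peroxisomal transporter Abcd2 (−3.35 ± 0.18) followed. Also among them was C6h14orf180 (−2.96 ± 0.085). The bled means of Bche, Acvr1c and Omd lay below the array median, and so did the bled median of Sult1a1 (5.49). The sizes of these falls are less exact than their direction. The same holds for the falls of Foxp2, Hhip, Sucnr1, Cmklr2, Phgdh, Ndst3, Tbx5 and Cdh19, and for the rises of Runx3, Spib, Bcl11a, Nrg1, Ereg, Slc7a11, Tgm1, Dsg2, Stfa2, Exo1 and Brip1, whose contralateral means were that low. Several of these are known from fat cells, and adipocyte markers fell beside them: all 18 measured were lower in all 11 rats, with a mean level of 8.22 to 9.67 in the bled and 10.97 to 11.54 in the contralateral knees. A 2nd probe set of Nnat gave −1.54, a smaller fall than that of the brightest.

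Transcription factors set which genes a cell can use, and 12 families of them were examined. More members rose than fell in the AP-1, the other bZIP and the NF-kB, STAT and IRF families, which respond to cytokines and stress. The same held for the haematopoietic family. In the ETS family 33.3% rose and 20.8% fell, near the 27.1% and 24.7% of all genes. Most members of the KLF, homeobox and SMAD families fell. In the AP-1 family, 3 of 6 genes rose and 2 fell, against 27.1% and 24.7% of all genes. Fosl1 rose (2.11 ± 0.20) and Junb rose (0.63 ± 0.10), while Jun, whose protein pairs with those of the Fos genes, fell (−0.57 ± 0.091). Of 32 other bZIP genes, 17 rose and 8 fell, with a median of 0.19. The leukocyte regulators Nfil3 and Batf led the rise. Nfil3 stood at 8.02 to 9.28 (median 8.64) in the bled and 6.29 to 7.62 (median 6.48) in the contralateral knees, with sham knees at 6.95 to 7.41 (1.93 ± 0.10, adjusted p = 9.44e-09). All bled knees lay above all contralateral and sham knees. Batf rose by 1.33 ± 0.094, whereas Creb5 (−1.61 ± 0.12) and Atf5 (−1.31 ± 0.10), a factor of mitochondrial stress, fell. Atf4, the central factor of the amino acid response, rose by only 0.18 ± 0.066, without the same sign in every rat, and Ddit3, one of its targets, fell (−0.84 ± 0.12), also not in every rat.

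Among 18 NF-kB, STAT and IRF genes, 10 rose and 5 fell. Rel, the lymphoid and myeloid NF-kB subunit, was at 8.70 to 9.37 (median 9.16) in the bled and 7.41 to 7.98 (median 7.80) in the contralateral knees and rose (1.34 ± 0.078, adjusted p = 2.05e-08) with no overlap between the groups. The subunits did not move as 1: Relb rose (0.62 ± 0.099), Nfkb2 rose (0.61 ± 0.054) and Rela, the most widely expressed subunit, fell (−0.34 ± 0.060). Irf8 and Irf5, factors of the monocyte and macrophage lineage, rose (1.76 ± 0.10 and 1.04 ± 0.068). The interferon-response factors fell, Irf7 by more (−1.42 ± 0.13) than Irf1 (−0.39 ± 0.060) and Irf9 (−0.26 ± 0.060).

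Lineage factors of blood cells gave 10 of 24 higher and 6 lower. Bcl11a (1.22 ± 0.095), a factor of B and dendritic cell development, and Ikzf1 (1.10 ± 0.097), which directs lymphoid cells, rose, and the ETS factors Spib (1.64 ± 0.10) and Spi1 (1.46 ± 0.072) of the myeloid and B lineages rose as well. In the ETS list, 8 of 24 rose and 5 fell, the fall being largest for the endothelial factor Erg (−0.69 ± 0.078). Erf, an ETS repressor, had a small fall (−0.26 ± 0.062). Its groups overlapped, with medians of 6.37 in the bled, 6.56 in the contralateral and 6.40 in the sham knees. Zbtb16, a glucocorticoid-responsive zinc finger gene, had the largest fall among the haematopoietic factors. It stood at 5.58 to 7.57 (median 6.17) in the bled and 7.74 to 10.49 (median 8.99) in the contralateral knees and fell by 2.57 (SE 0.15, adjusted p = 2.11e-08). Its groups did not overlap although its level varied widely within each knee. Ebf1 (−1.32 ± 0.082), known from B cells and fat cell precursors, and the mast cell and progenitor factor Gata2 (−0.90 ± 0.11) were lower too.

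In the list of SOX, RUNX and skeletal factors, 4 of 25 rose and 12 fell, and the 4 were the RUNX genes and their shared partner. Runx3 stood at 7.52 to 8.42 (median 8.09) in the bled and 4.93 to 5.98 (median 5.23) in the contralateral knees, with sham knees at 5.01 to 5.67. Every bled knee lay more than 1 log2 unit above every contralateral knee (2.77 ± 0.12, adjusted p = 3.65e-09). Runx2 (1.34 ± 0.14), Runx1 (0.90 ± 0.11) and Cbfb (0.63 ± 0.058), which binds the RUNX proteins, rose with it. The nuclear factor I gene Nfia (−1.80 ± 0.10) and Sox6 (−1.79 ± 0.10), a cartilage factor, led the falls. Beside Runx3, which is known from cytotoxic T cells, 14 of 15 T cell markers rose, and their mean was 6.93 to 7.62 in the bled and 5.83 to 6.61 in the contralateral knees. The part of T cells in the Runx3 difference was not tested.

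Nuclear receptors bind hormones and lipids and act on genes directly. Of 42 such genes, 7 rose and 21 fell, 18 of the latter in every rat, with a median of −0.16. Pparg, the receptor that drives fat cell identity, was at 7.35 to 8.48 (median 7.94) in the bled and 9.83 to 10.51 (median 10.36) in the contralateral knees and fell (−2.35 ± 0.095, adjusted p = 2.06e-09). Nr3c2, the mineralocorticoid receptor, was at 5.10 to 6.31 (median 5.70) in the bled and 7.79 to 8.30 (median 8.05) in the contralateral knees and fell (−2.32 ± 0.14, adjusted p = 2.07e-08). For both genes the groups were more than 1 log2 unit apart, and the sham knees (9.56 to 10.59 for Pparg and 7.43 to 8.13 for Nr3c2) overlapped the contralateral and not the bled ones. The falls also covered the glucocorticoid receptor Nr3c1 (−1.05 ± 0.058), the oestrogen receptor Esr1 (−1.84 ± 0.13), the thyroid hormone receptors Thra (−1.19 ± 0.077) and Thrb (−1.75 ± 0.075), and the lipid sensor Ppara (−1.53 ± 0.12). Vdr, the vitamin D receptor, rose (1.09 ± 0.10), as did Nr4a3 (0.75 ± 0.17), an early response gene of activated cells.

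Krüppel-like factors act in quiescence, fat storage and vessel function, and 13 of 22 KLF and SP genes fell while 2 rose. Klf15, a glucocorticoid-induced regulator of amino acid and lipid metabolism, stood at 5.22 to 6.18 (median 5.62) in the bled and 7.56 to 9.11 (median 7.97) in the contralateral knees and fell (−2.37 ± 0.13, adjusted p = 1.62e-08). Its sham levels (6.32 to 7.77) lay between the knees of the bled rats and reached into the contralateral range. Klf12 fell (−1.63 ± 0.11) and Klf13 had a small rise (0.26 ± 0.059). Without rats K2 and K10, 1 of these genes was called higher in place of 2.

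Homeobox and T-box factors keep the positional identity of limb mesenchyme and its fibroblasts into adult life. Of 44 measured, 32 fell, 22 of them in every rat, and the median was −0.60 against −0.004 for all genes. Tbx5 was at 4.81 to 6.22 (median 5.59) in the bled and 7.18 to 8.35 (median 7.57) in the contralateral knees, its bled levels near the array median, and fell (−2.04 ± 0.16, adjusted p = 1.84e-07). Osr2, a factor of joint formation, was at 6.73 to 7.96 (median 7.22) in the bled and 8.40 to 9.37 (median 8.92) in the contralateral knees and fell (−1.63 ± 0.14, adjusted p = 3.53e-07). In both, the sham levels (6.68 to 8.30 and 8.65 to 9.39) overlapped the contralateral and not the bled ones. The HOX genes of the list did not move evenly: Hoxa9 fell (−1.35 ± 0.082) and Hoxa7 fell (−1.31 ± 0.089), while Hoxd13, the most distal, had a difference of −0.043 ± 0.086 and was not called. The hindlimb factors Tbx4 (−0.70 ± 0.085) and Pitx1 (−0.71 ± 0.081) fell too. Meox1 was the 1 member called higher (0.39 ± 0.11, not in every rat), a call lost with the muscle covariate and without rats K2 and K10. Members called higher numbered 2 without the pairing, after quantile normalization or median centring, with the mean of all probe sets of a gene, and without rat K6, K8 or K9. Beside this list, 11 of 17 synovial fibroblast markers fell, with a mean of 9.42 to 10.31 in the bled and 10.13 to 10.63 in the contralateral knees. The part of the fibroblast share in the fall was not tested.

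Among 43 bHLH, Id and EMT factors, 11 rose and 19 fell. Tfec, a macrophage relative of Mitf, was at 8.68 to 10.19 (median 9.69) in the bled and 6.18 to 7.70 (median 6.98) in the contralateral knees and rose (2.52 ± 0.19, adjusted p = 1.67e-07) with no overlap. The dioxin receptor Ahr (1.61 ± 0.097), the oxygen-sensing subunit Hif1a (1.43 ± 0.091), Snai1 (1.44 ± 0.13) and the growth regulator Myc (1.03 ± 0.085) rose. The vascular hypoxia factor Epas1, a paralogue of Hif1a, fell (−0.62 ± 0.069), and so did Id4 (−1.33 ± 0.10), Zeb1 (−1.08 ± 0.079) and the Notch target Hey2 (−1.03 ± 0.098).

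In the forkhead family, 4 of 26 genes rose and 8 fell. The proliferation factor Foxm1 (1.03 ± 0.14) and Foxp3 (0.97 ± 0.12), which marks regulatory T cells, rose, whereas Foxo1 (−1.09 ± 0.078) and Foxp2 (−1.06 ± 0.14) fell. For SMAD, SRF and YAP pathway factors, 12 of 19 fell. Tgif1, a repressor in TGF-beta signalling, rose (0.94 ± 0.079). Smad2 had a small rise (0.17 ± 0.047) that missed the threshold under quantile normalization and without rats K2 and K10. The smooth muscle coactivator Myocd fell most (−1.53 ± 0.15), and the growth coactivator Yap1 fell as well (−0.60 ± 0.059).

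**Figure D3:**
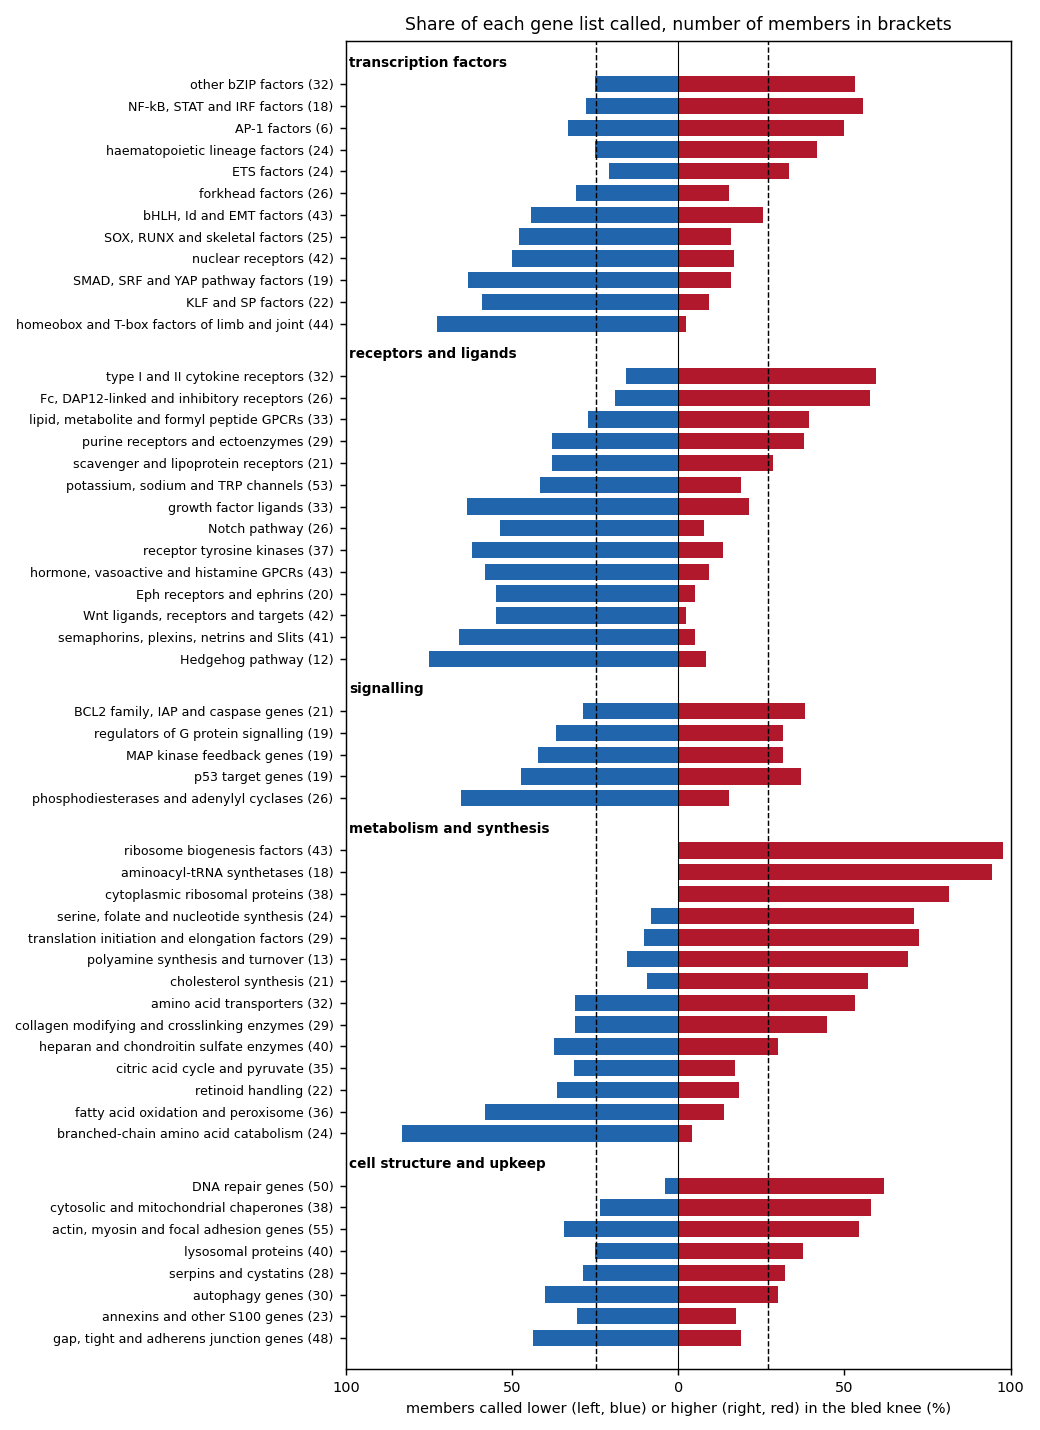
Percent of each list's measured members that were called higher (right, red) or lower (left, blue) in the bled knee, with the number of members in brackets and dashed lines at the shares over all genes, 27.1% and 24.7%. Ribosome biogenesis factors reach 97.7% on the right, and branched-chain amino acid catabolism reaches 83.3% on the left.

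Receptors were examined by the kind of signal they take up. Cytokine receptors, through which leukocytes read interleukins and growth signals, gave 19 of 32 higher and 5 lower, with a median of 0.54. Csf3r, the receptor for granulocyte colony stimulating factor, was at 9.70 to 10.95 (median 10.51) in the bled and 6.53 to 8.13 (median 7.25) in the contralateral knees, with sham knees at 5.97 to 7.23. Its groups did not overlap (3.19 ± 0.15, 9.1-fold, adjusted p = 6.34e-09), and the smallest paired difference, 1.76, was that of rat K10. Neutrophil markers rose beside it, 13 of 19 called higher, and their part in the difference was not tested. Il21r rose as well (2.04 ± 0.15). The interferon gamma receptor chains Ifngr2 (1.19 ± 0.057) and Ifngr1 (0.63 ± 0.071) and the interleukin 4 receptor Il4r (1.84 ± 0.089) rose. The growth hormone receptor Ghr (−1.08 ± 0.12) and Il20rb (−1.13 ± 0.094) fell.

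Receptors linked to the adaptor Tyrobp (DAP12) or to Fc chains, which activate or restrain myeloid cells, gave 15 of 26 higher and 5 lower. Lilrb4, an inhibitory receptor, stood at 10.88 to 12.11 (median 11.75) in the bled and 8.37 to 9.64 (median 8.88) in the contralateral knees and rose (2.65 ± 0.12, adjusted p = 4.52e-09). Cd300lb rose by 2.55 ± 0.17, and its dimmer probe set gave 0.84. Tyrobp itself rose (1.80 ± 0.096). The macrophage sialic acid receptor Siglec1 (−1.21 ± 0.11) and the antibody recycling receptor Fcgrt (−1.54 ± 0.097) fell. The scavenger receptors split, with 6 of 21 higher and 8 lower. Olr1, the receptor for oxidised LDL, was at 10.94 to 11.53 (median 11.31) in the bled and 6.36 to 8.68 (median 7.75) in the contralateral knees and rose 11.9-fold (3.58 ± 0.18, adjusted p = 8.15e-09). Lrp8, a receptor for reelin and apolipoprotein E, rose (2.22 ± 0.10), whereas Scara3 (−2.37 ± 0.17) and the fibroblast ferritin receptor Scara5 (−2.20 ± 0.21) fell.

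Genes of growth factor signalling were mostly lower. Of 37 receptor tyrosine kinases, 5 rose and 23 fell, and of 33 ligands, 7 rose and 21 fell. Nrg1, the neuregulin that binds Erbb3, was at 6.24 to 8.96 (median 8.01) in the bled and 4.21 to 5.06 (median 4.62) in the contralateral knees and rose (3.12 ± 0.25, adjusted p = 2.72e-07), from contralateral levels below the array median. Its receptor Erbb3 rose too, from 8.22 to 9.80 (median 9.52) in the bled and 7.48 to 8.34 (median 7.93) in the contralateral knees (1.43 ± 0.10, adjusted p = 1.07e-07), and its groups overlapped although every rat had the higher level in the bled knee. Ereg, a ligand of the EGF receptor, rose (1.69 ± 0.32) and the receptor Egfr fell (−1.38 ± 0.10). The dendritic cell receptor Flt3 rose (1.64 ± 0.12). Ntrk3 (−1.71 ± 0.11) and the collagen receptor Ddr2 (−1.58 ± 0.11) fell. Pdgfd, a ligand of the PDGF beta receptor, was at 5.86 to 7.29 (median 6.48) in the bled and 8.55 to 9.46 (median 8.97) in the contralateral knees and fell (−2.53 ± 0.16, adjusted p = 2.91e-08), as did Mst1 (−1.96 ± 0.10) and Igf2 (−1.73 ± 0.12).

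The genes of signals that pattern tissue were lower as lists. Guidance genes, the semaphorins, plexins, netrins and Slits, gave 27 of 41 lower and 2 higher, with a median of −0.41. Ntn1, or netrin 1, was at 7.42 to 8.95 (median 7.88) in the bled and 10.16 to 11.00 (median 10.73) in the contralateral knees and fell 6.57-fold (−2.72 ± 0.15, adjusted p = 1.5e-08). Sema3b fell (−2.29 ± 0.13), whereas the 2 leukocyte semaphorins Sema4a (2.25 ± 0.12) and Sema4d (1.34 ± 0.17) rose. The rise of Sema4d rests on 1 probe set, since the other gave 0.0055 (limma adjusted p = 0.985). Of 20 Eph receptors and ephrins, 11 fell, with Efna5 (−1.57 ± 0.093) and Efnb2 (−1.42 ± 0.094) in the lead.

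Hedgehog signalling keeps mesenchymal cells in a responsive state through the receptor Ptch1, the coreceptor Cdon and the GLI factors. Of 12 measured genes of the pathway, 9 fell, and the median was −0.51. Hhip, which binds the ligand and is itself a target, was at 4.79 to 6.19 (median 5.38) in the bled and 6.77 to 8.80 (median 7.84) in the contralateral knees and fell (−2.41 ± 0.20, adjusted p = 2.90e-07). Cdon was at 8.70 to 9.86 (median 8.97) in the bled and 10.29 to 11.05 (median 10.81) in the contralateral knees and fell (−1.66 ± 0.12, adjusted p = 8.53e-08). In both genes the groups did not overlap, and the sham knees lay at 7.19 to 8.39 and 10.90 to 11.44. The factors Gli2 (−1.39 ± 0.094) and Gli1 (−0.62 ± 0.11) and the signal transducer Smo (−0.61 ± 0.076) fell in every rat. Sufu, an inhibitor of the pathway, was the 1 member called higher (0.20 ± 0.072, not in every rat). That call was lost on leaving out any of 8 rats (K1 or K5 to K11) in turn, and with the muscle covariate.

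Notch genes gave 14 of 26 lower and 2 higher. Notch3, the receptor of mural cells, fell (−1.07 ± 0.13), while the sheddase Adam17 (0.50 ± 0.067) and Dtx4 (0.83 ± 0.098) rose. The sham levels of Dtx4 (7.92 to 8.40) were all above its contralateral levels (7.30 to 7.83) and within its bled range (7.82 to 8.63). For Adam17 the sham median was 9.66, with contralateral knees at 8.89 to 9.65 and bled knees at 9.62 to 10.09. The size of both rises thus depends on which knee is the reference. In the Wnt list, 23 of 42 fell and Fzd1 alone rose (0.63 ± 0.087). The enhancer of Wnt signalling Rspo2 (−1.86 ± 0.12) and the repressor Tcf7l1 (−1.45 ± 0.11) had the largest falls, and the coreceptors Lrp5 (−1.13 ± 0.085) and Lrp6 (−1.07 ± 0.068) and the feedback gene Axin2 (−0.89 ± 0.098) fell in every rat. Many Wnt ligands were dim: 14 of the 42 genes were not above the lowest array median in any group.

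G protein-coupled receptors were listed by ligand. Receptors for hormones and vasoactive signals gave 25 of 43 lower and 4 higher. Oxtr, the oxytocin receptor, was at 5.77 to 7.89 (median 6.15) in the bled and 8.08 to 11.80 (median 9.04) in the contralateral knees, with sham knees at 8.59 to 11.15, and fell (−3.17 ± 0.21, adjusted p = 5.75e-08). Its contralateral levels varied widely between rats, yet no bled knee reached them. The beta 3 adrenergic receptor Adrb3 of fat cells fell (−2.41 ± 0.20). The cannabinoid receptor Cnr2 of leukocytes (1.60 ± 0.13) and Ramp3, a partner of the calcitonin receptor-like receptor, rose (1.33 ± 0.16), while that receptor, Calcrl, fell (−1.05 ± 0.070). Receptors for lipids, metabolites and formyl peptides were mixed, with 13 of 33 higher and 9 lower. The acid-sensing Gpr65 (2.04 ± 0.11) and the lipid receptor Gpr132 (2.00 ± 0.12) rose. Sucnr1, the succinate receptor, was at 4.40 to 6.15 (median 4.96) in the bled and 7.54 to 8.87 (median 8.25) in the contralateral knees and fell (−3.07 ± 0.17, adjusted p = 1.53e-08), and so did Cmklr2 (−2.57 ± 0.21).

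Purine signalling was evenly split, with 11 of 29 genes higher and 11 lower. The nucleotide receptor P2ry6 (1.52 ± 0.096) and the ectoenzyme Enpp3 (1.30 ± 0.077) rose. For adenosine, the receptors Adora2a (0.70 ± 0.067) and Adora2b (0.74 ± 0.087), which raise cyclic AMP, rose, and Adora1 (−1.83 ± 0.086), which lowers it, fell. Entpd2, an ATP-degrading ectoenzyme, fell (−1.59 ± 0.12). Of 53 potassium, sodium and TRP channel genes, 10 rose and 22 fell. The lymphocyte channels Kcna3 (2.33 ± 0.12) and Kcnn4 (1.69 ± 0.10) rose. Kcnn3 fell from 9.02 to 9.78 in the contralateral to 6.02 to 8.67 in the bled knees (−2.61 ± 0.28, adjusted p = 3.67e-06), and the nerve-associated Scn7a fell too (−2.12 ± 0.16).

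Inside the cell, the feedback genes of MAP kinases gave 6 of 19 higher and 8 lower. The phosphatases Dusp2 (2.03 ± 0.15) and Dusp5 (1.27 ± 0.17) rose, and Dusp10 (−1.18 ± 0.10) and Dusp4 (−1.13 ± 0.13) fell. Regulators of G protein signalling were split as well, 6 of 19 higher and 7 lower. Rgs1, of activated lymphocytes and macrophages, was at 7.32 to 9.13 (median 8.19) in the bled and 4.88 to 6.59 (median 5.72) in the contralateral knees and rose (2.61 ± 0.20, adjusted p = 2.07e-07), and Rgs16 rose (1.31 ± 0.11), while the pericyte gene Rgs5 (−1.74 ± 0.13) and Rgs4 (−1.71 ± 0.14) fell. Of 26 phosphodiesterases and adenylyl cyclases, 17 fell and 4 rose, with a median of −0.51. Pde7a (1.08 ± 0.082) and Adcy7 (1.06 ± 0.085), both used by leukocytes, rose. The cyclase Adcy6 (−1.75 ± 0.094) and Pde2a (−1.73 ± 0.14) fell.

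Targets of p53 did not move as a list, with 7 of 19 higher and 9 lower. Plk3 (1.33 ± 0.085) and the death receptor Tnfrsf10b (1.33 ± 0.075) rose, and Phlda3 (−1.24 ± 0.092) and Plk2 (−1.20 ± 0.14) fell. The BCL2, IAP and caspase genes gave 8 of 21 higher and 6 lower. The survival gene Birc3 (1.31 ± 0.10) and the death-promoting Pmaip1 (1.30 ± 0.11) rose, and Bcl2 (−0.89 ± 0.10) and Bok (−0.46 ± 0.076) fell.

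**Figure D4:**
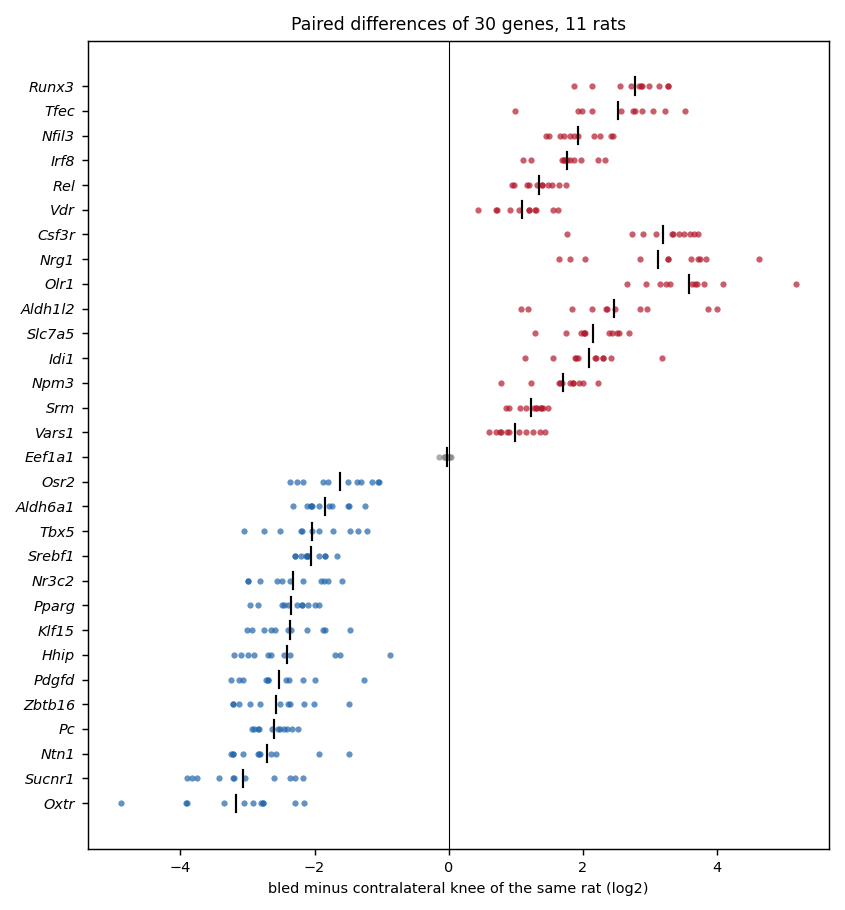
Difference between the bled and the contralateral knee of the same rat (x axis, log2) for 30 genes of the text, 1 point per rat and a black bar at the mean. The points of Eef1a1 lie within 0.14 of 0, whereas the 15 genes above it are higher and the 14 below it lower in the bled knee of all 11 rats.

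Among the 54 lists that are not cell markers, the largest shares of risen genes were in the machinery of protein synthesis. Ribosome biogenesis factors process ribosomal RNA in the nucleolus, and 42 of 43 rose, 41 of them in every rat and 41 with no overlap between the groups. Their median was 0.87. Over all genes, 27.1% rose, 19.6% were higher in every rat and 22.0% had groups without overlap. Npm3, a nucleolar chaperone, was at 8.20 to 8.90 (median 8.72) in the bled and 6.59 to 7.42 (median 6.97) in the contralateral knees, with sham knees at 6.77 to 7.43, and had the largest rise (1.69 ± 0.11, adjusted p = 4.53e-08). Gar1, of the RNA-modifying box H/ACA particle, followed (1.36 ± 0.091). The mean of the 43 genes was 8.58 to 8.87 in the bled knees, 7.70 to 7.95 in the contralateral and 7.44 to 7.95 in the sham knees. A rise was thus seen in every rat, and it was moderate in size.

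Aminoacyl-tRNA synthetases load amino acids onto their tRNAs. Of 18 cytosolic ones, 17 rose, each in every rat, with a median of 0.70. Vars1, for valine, was at 8.37 to 8.79 (median 8.58) in the bled and 7.26 to 7.89 (median 7.69) in the contralateral knees and rose (0.99 ± 0.083, adjusted p = 3.98e-07), with sham knees at 7.39 to 7.82. Farsb, for phenylalanine, rose similarly (0.98 ± 0.056). The synthetase for glutamine, Qars1, was the 1 that was not called (0.13 ± 0.051). Translation factors gave 21 of 29 higher and 3 lower. Eif1a (1.05 ± 0.067) and Eif2s1 (1.02 ± 0.075), both of initiation, led. Eef2k, the kinase that slows elongation, fell (−0.92 ± 0.095), and the helicase Eif4a2 fell (−0.55 ± 0.075) while its paralogue Eif4a1 rose (0.93 ± 0.056). Of 38 cytoplasmic ribosomal protein genes, 31 rose with a smaller median of 0.31, led by Rps24 (0.93 ± 0.081) and Rpl18 (0.72 ± 0.064). These genes have many near-identical copies in the genome, which a probe set may not tell apart.

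Because these genes moved together, their promoters were searched for short sequence motifs, on both strands, in the 250 bases before the annotated start (RefSeq, assembly GRCr8). The letters TGATGNAAN stand for the composite element bound by ATF4 and its partners. They were found in 5 of 17 tRNA synthetase promoters (29.4%), in 3 of 27 amino acid transporter promoters (11.1%) and in 3.3% of all 27456 promoters. The BCL2, IAP and caspase list, whose members went both ways, held it in 3 of 15 (20.0%). Serine, folate and nucleotide synthesis, a list in which 17 of 24 genes rose, held it in 0 of 20. The genes below are the synthetases and transporters that hold it, printed 5′ to 3′ with the element in capitals.
Aars1 (chr19:55908349-55908397, plus strand): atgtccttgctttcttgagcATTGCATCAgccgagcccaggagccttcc
Iars1 (chr17:15193653-15193697, minus strand): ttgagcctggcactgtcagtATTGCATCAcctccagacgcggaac
Mars1 (chr7:65023754-65023791, minus strand): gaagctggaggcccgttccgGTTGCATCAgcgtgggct
Nars1 (chr18:60275783-60275816, minus strand): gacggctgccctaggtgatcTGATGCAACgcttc
Tars1 (chr2:62114803-62114850, minus strand): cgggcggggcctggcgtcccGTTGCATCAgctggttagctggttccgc
Slc1a4 (chr14:98761770-98761812, minus strand): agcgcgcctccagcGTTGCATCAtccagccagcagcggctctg
Slc7a1 (chr12:11664438-11664486, plus strand): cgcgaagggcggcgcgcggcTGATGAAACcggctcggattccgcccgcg
Slc38a1 (chr7:129681515-129681563, minus strand): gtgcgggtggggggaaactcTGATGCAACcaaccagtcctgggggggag
The element lay from 14 bases before the start, in Nars1, to 236 bases before it, in Slc1a4. All 8 genes rose: Tars1 (0.98 ± 0.062), Nars1 (0.87 ± 0.060), Mars1 (0.76 ± 0.056), Iars1 (0.65 ± 0.054), Aars1 (0.59 ± 0.064), Slc38a1 (1.5 ± 0.15), Slc7a1 (1.42 ± 0.076) and Slc1a4 (0.62 ± 0.10), the last not in every rat. Synthetases without the letters rose as well, among them Vars1 and Farsb. A match describes these letters in this window and shows no binding.

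The E-box CACGTG, read by Myc and related bHLH proteins, was present in 5.8% of all promoters. Among ribosome biogenesis factors 8 of 40 promoters held it (20.0%), and among tRNA synthetases 23.5%. The share was 28.0% for translation factors and 6.9% for cytoplasmic ribosomal proteins, lists that mostly rose. It was 24.1% for the other bZIP factors, of which 17 of 32 rose and 8 fell. Lists that mostly fell also held it, with 19.2% for homeobox and T-box factors and 18.8% for KLF and SP factors. Examples are shown for the factors Npm3 and Wdr75 and for the polyamine enzyme Srm, with the E-box in capitals.
Npm3 (chr1:254546682-254546727, minus strand): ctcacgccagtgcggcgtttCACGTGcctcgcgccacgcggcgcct
Wdr75 (chr9:55395052-55395097, plus strand): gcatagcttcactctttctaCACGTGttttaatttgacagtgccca
Srm (chr5:164308809-164308854, plus strand): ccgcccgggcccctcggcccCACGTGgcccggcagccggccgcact
Wdr75 rose by 0.69 ± 0.061. The sterol element TCACNCCAC was in 1.0% of all promoters and in 0 of the cholesterol synthesis promoters, which says only that these letters are absent from this window.

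Polyamines are small cations needed for growth, made from the ornithine that arginase yields. Of 13 genes of their synthesis and turnover, 9 rose, each in every rat, and 2 fell (1 with the muscle covariate). Srm, spermidine synthase, was at 11.30 to 11.55 (median 11.43) in the bled and 10 to 10.60 (median 10.14) in the contralateral knees with no overlap (1.23 ± 0.067, adjusted p = 1.37e-08), and its sham levels were 9.84 to 10.53. Odc1, which commits ornithine to the pathway, rose (1.03 ± 0.094). Sat2, an acetylating enzyme, fell (−1.36 ± 0.089), whereas its relative Sat1 rose (0.75 ± 0.075).

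Amino acid transporters gave 17 of 32 higher and 10 lower. Slc7a5, which brings large neutral amino acids into activated cells, was at 9.74 to 10.20 (median 10) in the bled and 7.24 to 8.71 (median 7.83) in the contralateral knees and rose 4.42-fold (2.15 ± 0.11, adjusted p = 1.14e-08). The cystine importer Slc7a11 rose (1.93 ± 0.14). Slc7a10, a serine transporter of fat cells, was at 5.65 to 7.06 (median 6.18) in the bled and 8.85 to 9.72 (median 9.46) in the contralateral knees and fell (−3.11 ± 0.15, adjusted p = 6.15e-09). Its direction was opposite to that of its family members Slc7a5, Slc7a8 (1.65 ± 0.13) and Slc7a1.

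Genes of one-carbon and nucleotide synthesis were mostly higher, with 17 of 24 up and 2 down and a median of 0.57. The mitochondrial folate enzymes led. Aldh1l2 was at 8.26 to 9.42 (median 9.03) in the bled and 5.15 to 8.11 (median 6.55) in the contralateral knees and rose (2.46 ± 0.25, adjusted p = 2.30e-06). Its sham levels of 7.00 to 8.15 were all above the contralateral median, so the size of its difference depends on which knee is the reference. Mthfd2 (1.91 ± 0.14) and Shmt2 (1.62 ± 0.093) rose likewise, and the CTP synthase Ctps2 fell (−0.74 ± 0.078). Phgdh, the first enzyme of serine synthesis, went the other way: it was at 4.59 to 5.46 (median 5.10) in the bled and 6.26 to 7.16 (median 6.68) in the contralateral knees and fell (−1.49 ± 0.090, adjusted p = 2.45e-08). The other enzymes of that branch, Psat1 (−0.23 ± 0.13) and Psph (−0.040 ± 0.066), were not called.

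Cholesterol synthesis and fatty acid synthesis share the SREBP factors, which here moved apart. Of 21 cholesterol genes, 12 rose and 2 fell. Idi1, an isomerase of the isoprenoid steps, was at 7.85 to 8.59 (median 8.23) in the bled and 5.42 to 6.97 (median 6.16) in the contralateral knees and rose (2.09 ± 0.14, adjusted p = 6.06e-08). Sqle, the squalene epoxidase, was at 7.64 to 8.51 (median 8.16) in the bled and 6.06 to 6.92 (median 6.46) in the contralateral knees, with sham knees at 6.19 to 6.96, and rose (1.69 ± 0.099, adjusted p = 2.10e-08). Srebf2, the factor tied to cholesterol genes, rose (0.65 ± 0.048). Srebf1, tied to fatty acid genes, was at 7.15 to 7.83 (median 7.53) in the bled and 9.08 to 9.80 (median 9.67) in the contralateral knees and fell 4.13-fold (−2.05 ± 0.066, adjusted p = 5.56e-10), with paired differences only between −2.29 and −1.66. The late enzyme Dhcr7 also fell (−0.31 ± 0.082, not in every rat).

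Genes for the breakdown of branched-chain amino acids, a pathway of mitochondria in fat and muscle, were mostly lower. Of 24 genes, 20 fell, 19 in every rat, with a median of −0.63. Aldh6a1 was at 8.43 to 9.15 (median 8.68) in the bled and 10.15 to 10.78 (median 10.62) in the contralateral knees and fell (−1.85 ± 0.094, adjusted p = 8.46e-09), and Acadsb fell (−1.49 ± 0.096). Bcat1, the cytosolic transaminase of the first step, rose (0.74 ± 0.11) and its mitochondrial counterpart Bcat2 fell (−0.54 ± 0.071). The means of the list did not overlap, at 8.12 to 8.55 in the bled and 8.74 to 9.15 in the contralateral knees, while the sham knees spanned 8.53 to 9.22. Genes of fatty acid oxidation followed in the same direction, with 21 of 36 lower, led by Abcd2 and Ehhadh (−1.68 ± 0.10). Cpt1a, the gate of mitochondrial import, rose (0.62 ± 0.085), and the muscle form Cpt1b fell (−1.38 ± 0.32, not in every rat). Pex2 had a small rise (0.19 ± 0.056).

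The citric acid cycle changed less as a list, with 6 of 35 higher and 11 lower; without rat K7, 10 were called higher, and with the muscle covariate 6 were called lower. Pc, pyruvate carboxylase, was the exception in size. It was at 6.39 to 7.20 (median 6.90) in the bled and 9.12 to 9.51 (median 9.44) in the contralateral knees and fell 6.08-fold (−2.60 ± 0.074, adjusted p = 2.89e-10), with a small SE for its size. Pdk2 fell (−1.33 ± 0.15), Me2 (1.37 ± 0.10) and Dlst (0.33 ± 0.049) rose. Of 22 retinoid genes, 8 fell, with Rbp4 (−1.95 ± 0.12) and Rbp7 (−1.87 ± 0.19) in the lead, and Crabp2, which carries retinoic acid to its receptor, rose (1.13 ± 0.13).

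**Figure D5:**
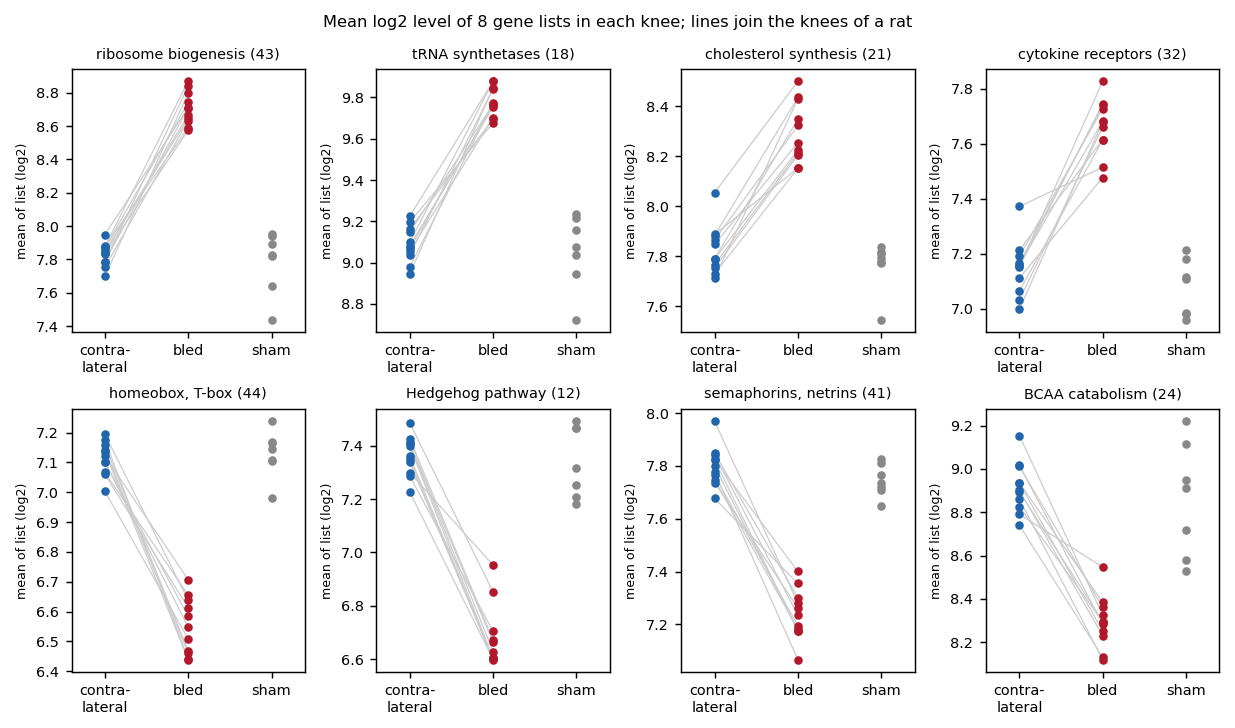
Mean log2 level (y axis) of 8 gene lists in each contralateral (blue), bled (red) and sham knee (grey), with lines joining the knees of a rat and the number of genes in brackets. In the upper lists the bled mean was higher in all 11 rats and in the lower lists it was lower in all 11.

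Matrix enzymes were mixed. Among the enzymes that build heparan and chondroitin sulfate, 12 of 40 rose and 15 fell: the chondroitin enzymes Chst11 (1.36 ± 0.11) and Chsy1 (1.30 ± 0.075) rose, and Chst3 (−1.35 ± 0.13) and Ndst3 (−1.24 ± 0.14) fell. Hyaluronan differed in size. Its synthase Has2 was at 10.45 to 11.70 (median 10.78) in the bled and 6.25 to 8.86 (median 8.09) in the contralateral knees, with sham knees at 7.95 to 8.84, and rose 7.31-fold (2.87 ± 0.20, adjusted p = 8.35e-08). Ugdh, which makes a precursor sugar of hyaluronan, rose as well (1.43 ± 0.099). Of 29 collagen-modifying enzymes, 13 rose and 9 fell. The crosslinking enzymes Tgm1 (2.43 ± 0.13) and Lox (1.56 ± 0.20) rose, and Colgalt2 (−2.20 ± 0.11) and P3h2 (−1.55 ± 0.12) fell.

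Of 55 genes of the actin skeleton, 30 rose (54.5%) and 19 fell (34.5%), against 27.1% and 24.7% of all genes. The groups did not overlap for 30 of the 55, against 22.0% of all genes. Among those that rose were Parvg (2.44 ± 0.13), Pstpip1 (2.08 ± 0.11) and Coro1a (1.99 ± 0.10), which are known from leukocytes. Among those that fell were Mylk (−1.84 ± 0.14), Myl9 (−1.66 ± 0.17) and Tagln (−1.4 ± 0.15), known from contractile cells. Junction genes gave 21 of 48 lower and 9 higher. The tight junction genes Cldn1 (−2.16 ± 0.17) and Cldn5 (−1.57 ± 0.18), the latter of endothelium, fell, and the gap junction gene Gja1 (1.41 ± 0.15) and desmosomal Dsg2 (1.28 ± 0.14) rose.

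In other lists of upkeep genes, DNA repair stood out, with 31 of 50 higher and 2 lower. Exo1, an exonuclease, was at 4.91 to 6.96 (median 6.31) in the bled and 4.24 to 5.17 (median 4.47) in the contralateral knees and rose (1.72 ± 0.17, adjusted p = 1.86e-06), and Brip1 rose (1.66 ± 0.17). The groups of Exo1 overlapped although its difference was positive in every rat. The repair genes Ercc5 (−0.65 ± 0.063) and Rad52 (−0.55 ± 0.060) fell. Chaperones gave 22 of 38 higher and 9 lower. The chaperonin genes Cct6a (1.19 ± 0.067) and the heat shock gene Hsph1 (1.18 ± 0.091) rose, and Hspa2 (−1.11 ± 0.11) fell. Hspa4l (−0.73 ± 0.11) was called lower with both means below the array median. Lysosomal genes gave 15 of 40 higher (37.5%) and 10 lower (25%), the latter near the 24.7% of all genes. Under quantile normalization 16 were lower. Ctsc, which activates neutrophil proteases, rose (1.66 ± 0.071), as did the proton pump subunit Atp6v1b2 (1.5 ± 0.069). Cathepsins Ctsf (−1.12 ± 0.067) and Ctsk (−1.11 ± 0.12) fell. Autophagy genes went both ways, 9 of 30 higher (30%, near the 27.1% of all genes) and 12 lower (40%). Atg4c (1.53 ± 0.095) and Atg7 (0.92 ± 0.069) were up and Gabarapl1 (−1.15 ± 0.11) and Optn (−0.71 ± 0.097) down.

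Serpins and cystatins gave 9 of 28 higher (32.1%) and 8 lower (28.6%), near the 27.1% and 24.7% of all genes. The stefin Stfa2 (3.25 ± 0.35) and Serpinb8 (1.66 ± 0.15) rose, and Serpini1 (−1.87 ± 0.10) and Serpina1 (−1.47 ± 0.14), the antitrypsin gene, fell. Of 23 annexin and S100 genes other than the neutrophil ones, 4 rose, led by Anxa2 (0.76 ± 0.073) and S100a4 (0.67 ± 0.090), and 7 fell. S100b (−2.77 ± 0.16) and S100a1 (−2.12 ± 0.19) had the largest falls.

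Markers of the cell types that such tissue can hold were given for comparison. Macrophage markers split: 12 of 21 rose and 7 fell. Spp1, made by recruited macrophages, was at 11.89 to 12.65 (median 12.55) in the bled and 7.18 to 10.51 (median 8.37) in the contralateral knees and rose (3.95 ± 0.30, adjusted p = 1.48e-07). Vsig4, of resident macrophages, was at 8.44 to 10.80 (median 9.53) in the bled and 11.19 to 12.04 (median 11.77) in the contralateral knees and fell (−2.13 ± 0.19, adjusted p = 7.09e-07), and C1qc fell as well (−1.37 ± 0.087). Cx3cr1, the fractalkine receptor of monocytes, rose (2.44 ± 0.14). Among the T cell genes Cd2 was at 8.06 to 10.21 (median 9.09) in the bled and 4.98 to 6.75 (median 5.61) in the contralateral knees and rose (3.54 ± 0.21, adjusted p = 2.08e-08), and Cd8b rose (2.53 ± 0.096), while Cd4 fell (−0.95 ± 0.12). B cell markers gave 5 of 10 higher, with Blnk (1.4 ± 0.12) and Fcrla (1.14 ± 0.14) first, and Cd72 fell (−0.52 ± 0.10). Of the neutrophil genes, Mcemp1 rose most among those of 1 sign in every rat (3.56 ± 0.18). The chemokine receptor Cxcr1 had a difference of −0.39 ± 0.084, with both means below the array median, so the size of its fall is not exact. Mpo, the myeloperoxidase gene, fell by 1.98 (SE 0.31), not in every rat.

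Markers of resident cells followed no single pattern. Of 16 endothelial genes, 13 fell, with Cd34 at −1.4 ± 0.11, and their mean was 8.57 to 9.15 in the bled and 9.23 to 9.97 in the contralateral knees. The lowest contralateral mean was that of rat K10. Of 11 Schwann cell markers, 8 fell, led by S100b and Cdh19 (−1.34 ± 0.13). Of 17 cartilage and tendon genes, 7 fell and 10 were not called. Cytl1, a cartilage cytokine, was at 5.63 to 8.41 (median 6.54) in the bled and 10.23 to 11.34 (median 10.89) in the contralateral knees and fell (−4.30 ± 0.25, adjusted p = 2.11e-08), and Cilp fell (−2.98 ± 0.15). Of the 17 synovial fibroblast markers, 4 rose, among them Has2 and Ugdh. The lining gene Clic5 was at 7.95 to 11.39 (median 9.38) in the bled and 11.60 to 12.46 (median 12.21) in the contralateral knees and fell (−2.68 ± 0.30, adjusted p = 6.41e-06), and Htra4 fell (−2.59 ± 0.27), while Prg4 was not called (−0.049 ± 0.055). The adipokine gene Lep was at 5.06 to 7.52 (median 5.86) in the bled and 8.98 to 10.53 (median 9.44) in the contralateral knees and fell (−3.54 ± 0.19, adjusted p = 1.17e-08), and Pck1 fell as well (−3.28 ± 0.27). Of 10 mast cell markers 5 fell and 2 rose, and the histamine enzyme Hdc, which other leukocytes also use, rose (1.39 ± 0.18). The risen mast cell markers numbered 1 without the pairing, with the muscle covariate, or without rat K1, K5, K7, K8, K9 or K11. Of 8 erythroid markers, limma called 0, with and without the pairing by rat, and 0 had an unadjusted p under 0.05. Without rat K2, 2 were called lower, among them the band 3 gene Slc4a1 (−0.74 ± 0.41 with all rats and −1.09 without K2).

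The knees did not differ to the same degree in each rat. The differences of each rat were set against the mean of the other 10 over all probe sets. The slopes went from 0.65 in rat K10 to 1.13 in rat K5, with rats K3 (0.76) and K1 (0.77) also low. Each slope rests on both arrays of a rat, and the contralateral array of K10 stood apart. A smaller response in K10 and an unusual contralateral array therefore cannot be told apart. Among the called genes, those with the widest spread between rats were of muscle and cartilage. Myot, of the muscle Z disc, had paired differences from −7.05 to 2.96 (−2.64 ± 0.78, lower in 8 of 11 rats). The cartilage lectin Clec3a ranged from −5.62 to 1.16 (−2.91 ± 0.75). The falls of Mybpc1, Casq1, Pvalb, Myoz1, Ampd1 and Pygm, all of muscle fibres, lay between −2.26 and −2.05, and pairs of both signs occurred in each. The calls of the first 5 of these were lost on leaving out single rats. The count of muscle markers called lower was 6 of 20 with all rats. It was 17 without K2, 12 without K9, 9 without K3, 3 without K6 or K11, and 2 without K1, K4, K5, K7, K8 or K10. With the muscle covariate it was 2, but that covariate is the mean of these same 20 markers, so this count is no separate check. Ldb3 was the muscle marker that fell in every rat (−2.06 ± 0.31).

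At the other end, 2412 genes had a 95% interval of the difference within 0.2 of 0, a bound on the array value and not on the RNA, since differences compress at both ends of the range. The brightest were the mitochondrial COX3 (−0.086 ± 0.043) and COX1 (−0.070 ± 0.042), the intermediate filament gene Vim (0.044 ± 0.043), Rn5-8s (−0.020 ± 0.049), the elongation factor gene Eef1a1 (−0.033 ± 0.041) and Rps29 (0.096 ± 0.044). Values this bright are near the top of the array's range. Rps29 was called higher without the pairing (0.095), after quantile normalization (0.144) and after median centring (0.121).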

How the data were processed

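RNA of each knee was hybridised to 1 Affymetrix rat gene array, and the deposited values are on the log2 scale. Per the submitters' processing notes, RMA was run in version 1.4.46 of Affymetrix Expression Console. The options of RMA, and whether knees and nodes were normalized together, are not known here. The number of arrays limits the precision. Groups and pairs came from the sample labels.

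The 22 values of each of 36685 probe sets were fitted without filter in R 4.3.3 with limma 3.58.1, with rat as a block and side as the tested term, moderated by eBayes and adjusted by Benjamini-Hochberg over all probe sets. Summaries used Python 3.11.15, numpy 2.4.6 and pandas 2.3.3. The array's annotation named 18511 probe sets by 1 symbol; 575 with several symbols and 17599 unlisted ones were tested and not named. The annotation is not tied to probe positions here, so no coordinates of probes are given.

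The labels give both knees of a pair the same rat code, which is why the block was used. Between the knees of a rat, deviations from the group mean correlated from −0.10 to 0.21 (mean 0.069).

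The 66 gene lists and the comparison were chosen with earlier results of these data known. Named genes are the 10 each way with the largest smallest-pair difference. Up to 2 each way per list were added by size, among members of 1 sign in all 11 pairs. The 8 called genes with the widest spread between rats and the 6 brightest with a narrow interval around 0 complete them. Other members are named where a list holds a pair of related genes or a whole branch, and for promoter motifs, and were chosen after their values were seen. Several genes stand in more than 1 list. The values of 1 list are not reported here.

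Alternatives were a fit without the block, a fit that shares the spread with the sham knees, a trend prior, array weights, quantile normalization, median centring, a filter on dim probe sets, 1 probe set per gene, a skeletal muscle covariate, and leaving out each rat. Leaving out rats K2 and K10 together, and the counts of lists with the muscle covariate and without single rats, were chosen after seeing the data. The fitting script was tested on simulated data.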

Additional observations from a re-analysis of the deposited data

Results flagged for a closer look

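Among 20 genes whose sham levels were examined, 1 had a sham knee far from the other 6: the level of Sqle was 6.96 in rat C5, the highest sham value, against 6.19 to 6.42 in the others. The gap passed Dixon's 95% critical value, which chance alone passes in about 1 group of 20, and Sqle was 7.64 to 8.51 in the bled knees.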

How the results depend on the processing

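The count of 13818 called probe sets stayed within 1.5 times of itself under each alternative run: it was 13746 without the replicate block, 12728 with the sham knees sharing the spread, 13828 with a trend prior, 13982 with array weights, 13693 after quantile normalization, 13874 after median centring, 12192 among probe sets above the median of the means, 9998 with 1 probe set per gene, 12115 with the muscle covariate, 13107 without rats K2 and K10, and 13019 to 13612 on leaving out each rat. Of these counts, 12192 and 9998 come from fewer tested probe sets and are not like for like with 13818. Probe sets of 1 sign in all 11 pairs numbered 8455, against 8365 after quantile normalization and 8424 after median centring. They numbered 8574 to 8978 on leaving out each rat and 9419 without rats K2 and K10. These last counts rest on fewer pairs, where 1 sign is easier to reach, and are not like for like. Of the called probe sets, 55.0% were higher, against 52.4% after quantile normalization and 58.9% after median centring. Of 255 genes examined singly, 246 kept their direction and call in each of their settings. Without the replicate block, Ampd1 (−2.05) and Pvalb (−2.05) missed the threshold and Rps29 (0.095) passed it, as it did after quantile normalization (0.144) and median centring (0.121); the block changed no other call among these genes. Directions turned for Rn5-8s, at 0.022 after quantile normalization, 0.005 after median centring and from −0.036 to 0.006 on leaving out each rat, and for Slc4a1 with the muscle covariate (0.032); neither was called in the reported fit. With the muscle covariate, Ampd1 (−0.30), Casq1 (−0.34), Mybpc1 (−0.28) and Pvalb (−0.24) were not called. Casq1, Mybpc1 and Pvalb are among the genes averaged in that covariate, so for them this setting is no separate check. Smad2 was not called after quantile normalization (0.11). Small counts moved most: fatty acid oxidation had 5 genes called higher, 3 after quantile normalization and 2 without rat K4 or K6. Retinoid genes called higher numbered 4, and 2 without rats K1, K4, K6, K7 or K10, left out 1 at a time. The cause of these changes was not tested. Array signal without detection calls limits what can be said of dim genes.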
